A study of Mus musculus with 6 samples.

Results

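The MYC network is a family of transcription factors, and 10 of its genes were examined here: Myc, Mycn and Mycl, which encode the MYC proteins, Max, which encodes their common partner, Mxd1, Mxi1, Mxd3, Mxd4 and Mnt, which encode antagonists, and Mlx, which encodes a MAX-like protein. They were chosen by gene symbol, as the known members of the family, from the 55401 genes of the deposited tables, and all 10 were found there. RNA had been sequenced from 6 primary cancer cell lines grown in culture from tumours of C57BL/6 mice. The host genotype was given as WT for 3 lines (numbered 2, 4 and 6) and as Rag1KO for the other 3 (numbered 1, 3 and 7), Rag1 being a gene that T and B cells need to assemble their antigen receptors. No treatment, time course, host age or tumour type was given in the sources used here, and each library stands for 1 line. The comparison asks how tumour cells that had grown with or without an adaptive immune system differ.

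MYC proteins activate transcription of growth genes when bound to MAX, and the dimer recognises the DNA sequence CACGTG, called an E-box. The MXD proteins, MXI1 and MNT also bind MAX and the same sequence, but recruit SIN3 corepressors, so that the balance of the partners of MAX sets the output of shared targets. MLX joins a related branch: with MondoA (encoded by Mlxip) or ChREBP (encoded by Mlxipl) it responds to glucose, and it also pairs with MNT and some MXD proteins. MXD genes are typically associated with cells that leave the cell cycle and differentiate, apart from Mxd3, which is linked to S phase.

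Libraries held 55409583 to 62998051 reads assigned to genes. Values are normalized counts, that is, reads divided by 1 size factor per library, and are listed for WT replicates 2, 4, 6 and Rag1KO replicates 1, 3, 7 in this order. WT replicate 6 stood apart from the rest: it was the highest or the lowest of the 6 libraries for 57.8% of the 16137 genes tested. Results are therefore given with and without it. Rag1 was at 39.3, 126 and 177 normalized counts in Rag1KO replicates 1, 3, 7 and had 0 reads in the lines labelled WT, so groups are called by their labels throughout. The Y-linked gene Eif2s3y, the 1 gene with an adjusted p under 0.05 by limma, likewise had 0 reads in the lines labelled WT and 1438 to 2944 normalized counts in those labelled Rag1KO, so the label and this sex-linked difference cannot be told apart. All 10 mesenchymal markers examined had reads in every line but Rag1KO replicate 3, which lacked Lum. Their summed level was 495383 normalized counts in WT replicate 6 against 1441873 to 2281368 in the other 5 lines. Col1a1 was at 206 and Thy1 at 0.88 normalized counts in that library, against at least 478322 and 29802 in the others. Col1a2 and Pdgfrb were also lowest there, but the list did not fall as a whole. Fap was highest in WT replicate 6, at 686 normalized counts against 4.03 to 184 in the others. Pdgfra, Lum, Col3a1, Dcn and Vim were not lowest in that library. Lymphocyte markers summed to at most 4.4 normalized counts in any line. Among leukocyte markers Tyrobp and Cd52 had 0 reads in all 6 libraries, and Ptprc, the pan-leukocyte gene, reached at most 3.83 normalized counts. Other genes of that list had more: Lyz2 reached 1493, Csf1r 429, Cd14 347 and Cd68 142 normalized counts. The 10 leukocyte markers summed to 268 to 910 in the lines labelled WT and 451 to 2109 in those labelled Rag1KO, and their part in the results was not tested.

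Because the proteins of the network share the E-box, the promoters of the members were searched for it. RefSeq promoter windows (GRCm38.p6, from 250 bases before to 50 after each start site) were matched for 9 of the 10 members, Myc being the exception. The letters CACGTG, which read the same on both strands, occurred in the windows of 4 of those 9 genes: Max, Mxd4, Mnt and Mlx. They occurred in 8.09% of all 27025 genes with a window and in 11.6% of the tested genes with one. In Max the motif spanned the start site, and it is not printed. The other 3 are shown with 20 bases on either side, on the strand of the gene and with the motif in capitals, because they hold, in members of the network, the letters that its proteins recognise.
Mxd4 (chr5:34187904-34187949, minus strand): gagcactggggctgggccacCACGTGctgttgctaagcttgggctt
Mnt (chr11:74830781-74830826, plus strand): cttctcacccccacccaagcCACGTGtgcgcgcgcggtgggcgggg
Mlx (chr11:101087230-101087275, plus strand): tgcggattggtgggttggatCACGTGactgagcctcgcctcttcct
A match is a description of these letters and does not show binding. The motif was absent from the windows of Mycn, Mycl, Mxd1, Mxd3 and the 3 windows of Mxi1. The 4 genes with the motif did not share a pattern across the lines: Max, Mnt and Mlx were highest in WT replicate 6, where Mxd4 was lowest.

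None of the members passed the threshold between the groups. Of the 10 genes, 9 had enough reads to be tested and Mycn did not. By limma on log2(value + 1), 0 of the 9 had an adjusted p under 0.05, where 0.0062% of all tested genes did (1 gene, Eif2s3y). Adjusted p values ran from 0.850 to 0.923. The counts were also 0 by edgeR's quasi-likelihood test, which called 0% of all genes, and by DESeq2, which called 0.403%. At an unadjusted p under 0.05 the count of members was 0 by each of the 3 tools, beside 4.67% of all genes by limma, 4.44% by edgeR and 6.54% by DESeq2. The groups overlapped for every member, whereas 12.1% of all tested genes had groups that did not overlap. The log2 fold change (WT minus Rag1KO) was positive for 4 members and negative for 5, with a median of −0.21, and 8071 of the 16137 tested genes were positive. Separate animals are not named in the labels, and a p value here therefore reflects only how far these 6 cultures lie apart.

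**Figure D1:**
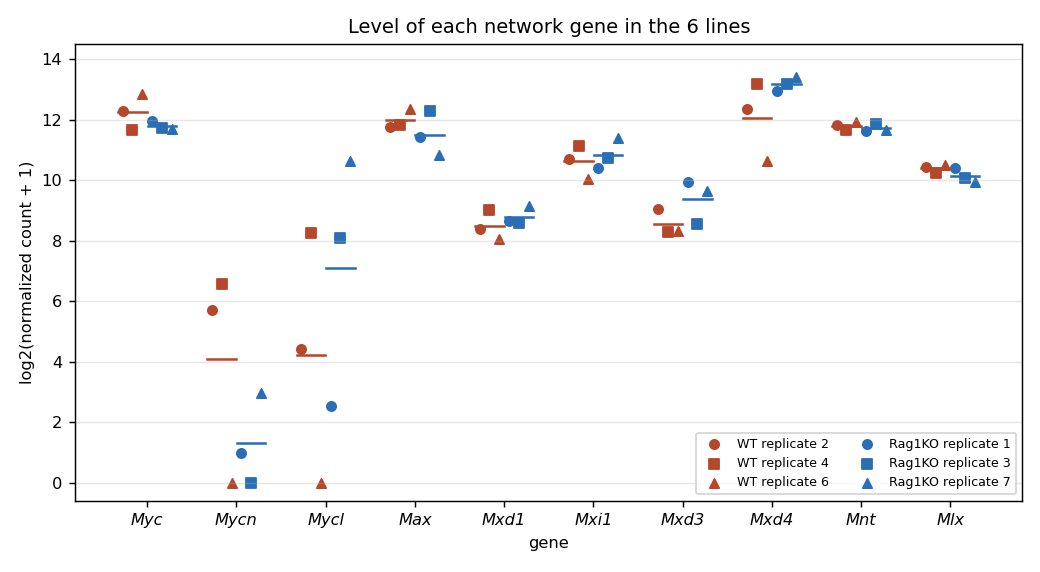
Level of each network gene as log2(normalized count + 1) on the vertical axis, with 1 point per library (red, lines labelled WT; blue, lines labelled Rag1KO; short bars, group means). Mnt and Mlx lie in narrow bands, Mxd4 drops to 1603 normalized counts in WT replicate 6, and Mycl and Mycn run from 0 to 1597 and to 92.7 normalized counts.

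Myc (ENSMUSG00000022346.16, chromosome 15, 61985391 to 61990374, mm10) had the highest level per kilobase of the MYC genes in every line. It had 4993, 3263 and 7282 normalized counts in the lines labelled WT, and 3929, 3402 and 3322 in those labelled Rag1KO. The lines labelled Rag1KO lay close together, while WT replicate 4 was the lowest line of all and WT replicate 6 the highest. Between the groups the log2 fold change was 0.47 with an SE of 0.31 (limma, 95% interval −0.29 to 1.24, adjusted p = 0.850), so a fold from 0.818 to 2.35 was within the interval. Without WT replicate 6 the log2 fold change was 0.19. The non-coding gene Pvt1, 47612 bases from Myc and often gained together with it in tumours, was not highest in the same line: it had 1132 normalized counts in WT replicate 6 and 721 to 1326 in the other lines.

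The 3 genes whose pattern was most like that of Myc were Bzw2, Fam49b and Wwtr1, out of 13080 compared. Likeness was measured as the root mean square difference of log2 values around each gene's own mean over the 6 libraries, and it was 0.07, 0.08 and 0.09. Bzw2, which encodes a regulator of translation initiation, had 6846 normalized counts in WT replicate 6 and 2851 to 5038 in the other lines. Wwtr1, which encodes the Hippo pathway coactivator TAZ, had 18491 normalized counts in WT replicate 6 and 7894 to 11657 elsewhere. Fam49b lies on the same chromosome as Myc, 1938723 bases away. With 6 libraries and so many genes, likeness of this size is a description only.

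Mycl (ENSMUSG00000028654.13, chromosome 4, 122995652 to 123002485) encodes L-MYC, a form usually linked to neuroendocrine tumours and dendritic cells. It had 20.1, 306 and 0 normalized counts in the lines labelled WT, and 4.79, 273 and 1597 in those labelled Rag1KO. Each group thus held lines near 0 and lines well above it. The 0 reads in WT replicate 6 allow up to 2.64 normalized counts, covering counting error only. Its range over the libraries was wider than that of 98.7% of tested genes. Its log2 fold change of −2.87 had an SE of 2.79 and a 95% interval from −9.71 to 3.97 (limma, adjusted p = 0.853), and it was −0.76 without WT replicate 6.

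Within 500 kb of Mycl lie 15 protein-coding genes, 8 of them tested. Of these 8, 2 were highest in Rag1KO replicate 7, as were 15.2% of all tested genes. Mfsd2a, a lipid transporter gene 34464 bases away that was picked out after its values were seen, was the 1 neighbour both highest there and lowest in WT replicate 6. It had 186, 130 and 7.04 normalized counts in the lines labelled WT and 11.5, 68.4 and 210 in those labelled Rag1KO. The genes most like Mycl over the 6 libraries were Megf6 and Adamtsl1, both on chromosome 4 but 31168245 and 36567267 bases away, and Dpep1, with root mean square differences of 0.89, 0.99 and 1.15. These differences were larger than those of the genes most like Myc. Megf6 had 1575 normalized counts in Rag1KO replicate 7 and at most 170 in any other line. Among neural and neuroendocrine markers Dcx had 0 reads in all libraries and Chga at most 1.16 normalized counts. Stmn2, a neuronal gene, was at 374 normalized counts in Rag1KO replicate 7 and at most 24.2 elsewhere. Tubb3 was at 2146, 4090 and 3396 normalized counts in WT replicate 4 and Rag1KO replicates 3 and 7, the 3 lines with the most Mycl, and at 435 to 548 in the other 3. Syp and Elavl4 went the other way, both being highest in WT replicate 6, which had 0 Mycl reads. Syp was at 21.1 normalized counts there and at 7.05 to 17.2 elsewhere, and Elavl4 at 6.16 there and 0 elsewhere. Whether these markers have a part in the Mycl values was not tested.

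Mycn (ENSMUSG00000037169.15, chromosome 12, 12936093 to 12941914) encodes N-MYC, known for its role in embryonic neural tissue and neuroblastoma. It had 51.4, 92.7 and 0 normalized counts in the lines labelled WT, and 0.96, 0 and 6.78 in those labelled Rag1KO. WT replicates 2 and 4 thus stood above the other 4 lines, whose libraries held at most 7 reads. The low reads kept it out of the test with all 6 libraries. With no filter its log2 fold change was 2.78 (limma, adjusted p = 0.768), and without WT replicate 6 it was 4.82 (limma, adjusted p = 0.982). In the fit without WT replicate 6 it passed the filter only through WT replicates 2 and 4, where it was high. That value is therefore a description only. WT replicates 2 and 4 were also the lines with Xist, at 59775 and 32733 normalized counts against at most 15.3 in the others. Whether the 2 are related was not tested. Its protein-coding neighbours within 500 kb, 2 genes that were both tested, had ranges of 0.81 and 0.99 on the log2 scale.

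Max (ENSMUSG00000059436.13, chromosome 12, 76937269 to 76962201), which encodes the partner shared by the MYC and MXD proteins, was at 3444, 3607 and 5201 normalized counts in the lines labelled WT. In those labelled Rag1KO it was at 2719, 4952 and 1810. Rag1KO replicates 3 and 7 therefore bracketed WT replicates 2 and 4. The log2 fold change was 0.47 with an SE of 0.40 (limma, adjusted p = 0.850), and it went from 0.13 without Rag1KO replicate 7 to 0.86 without Rag1KO replicate 3, with 0.28 without WT replicate 6. The highest value was 2.87 times the lowest, which is a wider spread than that of Myc, at 2.23 times.

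Mxd4 (ENSMUSG00000037235.13, chromosome 5, 34173883 to 34187720) is an antagonist gene that varied widely, over a range larger than that of 77.5% of tested genes. It was at 5203, 9219 and 1603 normalized counts in the lines labelled WT, and at 7913, 9277 and 10979 in those labelled Rag1KO. WT replicate 6 lay far below every other line, and the mean of the other 5 was 5.31 times its value. WT replicate 4 lay among the lines labelled Rag1KO. Its log2 fold change was −1.13 with an SE of 0.63 (limma, 95% interval −2.68 to 0.42, adjusted p = 0.850), and it was −0.43 without WT replicate 6. The summed mesenchymal markers were also lowest in that library, although not every marker was, and their part in the Mxd4 value was not tested. In RNA from whole cultures, fewer cells of a type and less RNA per cell cannot be told apart. Mxd4 shares 514 exonic bases with the antisense gene Gm42846, which had at most 4.63 normalized counts.

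Mxi1 and Mxd1, the other differentiation-linked antagonists, had the same extremes. Mxi1 (ENSMUSG00000025025.14, chromosome 19, 53310518 to 53375810) was at 1676, 2216 and 1051 normalized counts in the lines labelled WT and at 1336, 1691 and 2675 in those labelled Rag1KO. Mxd1 (ENSMUSG00000001156.9, chromosome 6, 86647042 to 86669161), which encodes MAD1, was at 332, 513 and 262 normalized counts in the lines labelled WT. In those labelled Rag1KO it was at 398, 381 and 563. Both were lowest in WT replicate 6, highest in Rag1KO replicate 7 and second highest in WT replicate 4. The log2 fold change was −0.21 (SE 0.38) for Mxi1 and −0.31 (SE 0.36) for Mxd1, with limma's adjusted p at 0.915 and 0.865. Without WT replicate 6 the value of Mxd1 was −0.09. For Mxi1 the sign turned to positive without WT replicate 6 (0.08) and without Rag1KO replicate 7 (0.07). Mxi1 shares 194 exonic bases with the antisense gene Gm10197, which had at most 4.63 normalized counts.

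Mxd3 (ENSMUSG00000021485.14, chromosome 13, 55325168 to 55329823) departed from the other MXD genes. It was at 525, 308 and 315 normalized counts in the lines labelled WT and at 969, 372 and 801 in those labelled Rag1KO. Rag1KO replicates 1 and 7 lay above the other 4 lines, and Rag1KO replicate 3 lay among the lines labelled WT. The log2 fold change was −0.83 with an SE of 0.46 (limma, 95% interval −1.95 to 0.28, adjusted p = 0.850), and it was −0.72 without WT replicate 6. Beside it stand 18 proliferation genes, whose mean log2(value + 1) was highest in Rag1KO replicate 1, at 12.56, and lowest in Rag1KO replicate 3, at 11.21. The mean was 12.01 in Rag1KO replicate 7, 11.95 in WT replicate 2 and 11.38 in WT replicate 4. From highest to lowest, Rag1KO replicates 1 and 7 and WT replicate 2 came in the same order for Mxd3 and for the list. The mean was 12.22 in WT replicate 6, where Mxd3 was low. Lines with the most proliferation transcripts were thus not always those with the most Mxd3. The exons of Mxd3 share 105 bases with the antisense gene Prelid1, which was at 13362 to 15792 normalized counts. The sources used here do not say whether reads were counted by strand. The range of Prelid1 was narrow beside that of Mxd3, and whether shared reads had a part in the Mxd3 values was not tested.

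Mnt (ENSMUSG00000000282.12, chromosome 11, 74830920 to 74845725), an antagonist found in most cell types, was the steadiest member. It was at 3623, 3197 and 3845 normalized counts in the lines labelled WT and at 3137, 3704 and 3259 in those labelled Rag1KO. Its range over the 6 lines was smaller in only 1.09% of tested genes, and the highest value was 1.23 times the lowest. Its log2 fold change was 0.08 with an SE of 0.16 (limma, adjusted p = 0.923), and 0.02 without WT replicate 6. The interval of the fold ran from 0.801 to 1.39.

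Mlx (ENSMUSG00000017801.15, chromosome 11, 101087277 to 101092207) was also steady. It was at 1391, 1211 and 1445 normalized counts in the lines labelled WT and at 1347, 1085 and 979 in those labelled Rag1KO. For Mlx the log2 fold change was 0.25 with an SE of 0.21 (limma, adjusted p = 0.850), and 0.20 without WT replicate 6. Mlx shares 385 exonic bases with the antisense gene Psmc3ip, which was at 198 to 556 normalized counts. Psmc3ip was, like Mlx, highest in WT replicate 6, and whether shared reads raised the Mlx value there was not tested.

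**Figure D2:**
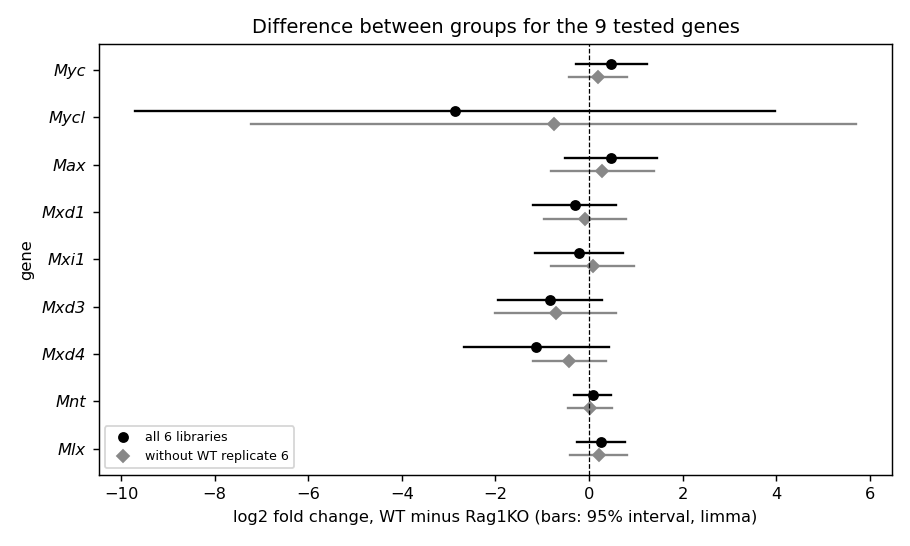
Log2 fold change (WT minus Rag1KO) of the 9 tested genes on the horizontal axis with 95% intervals from limma, with all 6 libraries (black) and without WT replicate 6 (grey). Every interval includes 0, and the intervals are narrowest for Mnt and Mlx and widest for Mycl.

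Members pointed to the same lines at their extremes. WT replicate 6 was the highest library for Myc, Max, Mnt and Mlx and the lowest for Mycl, Mxd1, Mxi1 and Mxd4, which makes 8 of the 9 tested members. That library was highest for 27.4% and lowest for 30.5% of all tested genes. Mycl, Mxd1, Mxi1 and Mxd4 were each lowest in WT replicate 6 and highest in Rag1KO replicate 7, an arrangement seen in 5.87% of tested genes. The reverse, highest in WT replicate 6 and lowest in Rag1KO replicate 7, held for Max and Mlx and for 4.52% of tested genes. Myc had its lowest value in WT replicate 4 instead, where Mxd1 and Mxi1 were second highest. Members are not independent of each other or of the library they were read from, so these counts describe the 6 lines.

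**Figure D3:**
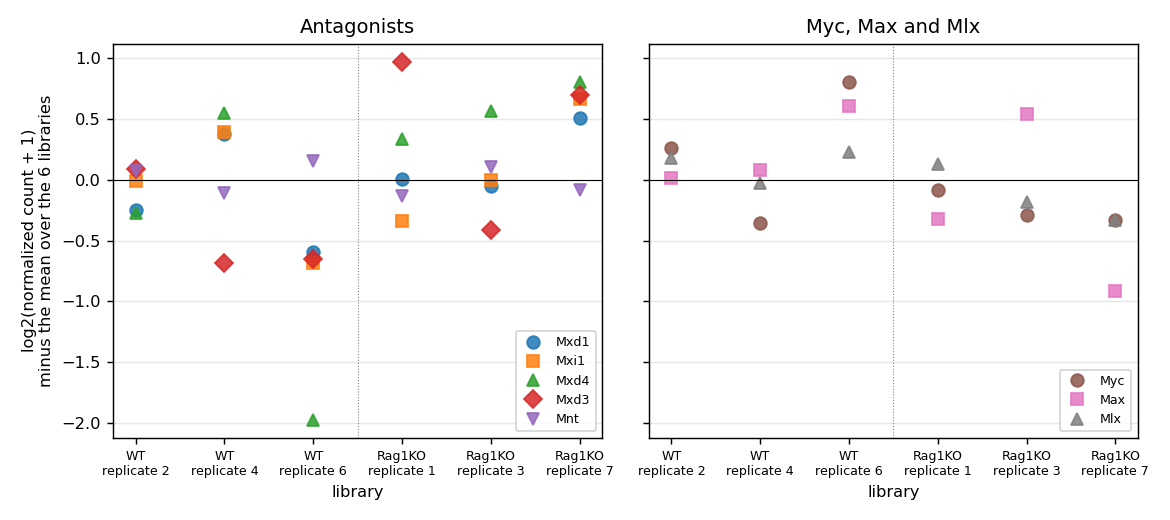
Log2(normalized count + 1) of each gene minus its own mean over the 6 libraries, by library, for the antagonists (left) and for Myc, Max and Mlx (right). In WT replicate 6, Mxd1, Mxi1, Mxd3 and Mxd4 lie below their means and Myc, Max and Mlx above theirs, while Mnt stays within a narrow band in all lines.

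Levels of different genes were compared per kilobase of merged exons. Averaged over the 6 lines, the order was Myc at 1607 ± 578 (SD, n = 6 lines), Max at 1007 ± 360, Mxd4 at 868 ± 403, Mnt at 748 ± 64.8 and Mlx at 622 ± 92.0 normalized counts per kilobase. Below these came Mxi1 at 260 ± 86.4, Mxd3 at 231 ± 117, Mycl at 90.9 ± 153, Mxd1 at 57.7 ± 15.8 and Mycn at 7.68 ± 11.7 normalized counts per kilobase. Several neighbours in this order did not differ beyond their spread: Max exceeded Mxd4 in 3 of the 6 lines, Mxd4 exceeded Mnt in 4 and Mycl exceeded Mxd1 in 3. Others held in all 6 lines, namely Mnt above Mlx, Mlx above Mxi1 and Mxd1 above Mycn. Myc exceeded Max in 5 lines, the exception being Rag1KO replicate 3. With the longest transcript as the length the averaged order was unchanged, but Mnt exceeded Mlx and Mlx exceeded Mxi1 in 5 lines, Myc exceeded Max in 4 and Mycl exceeded Mxd1 in 1. The means of Myc and Max were then nearly equal, at 1867 and 1865 normalized counts per kilobase.

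The make-up of the antagonist transcripts differed between lines. In the 3 lines labelled Rag1KO, Mxd4 made up 41.1%, 46.5% and 46.1% of the summed antagonist level per kilobase (replicates 1, 3 and 7). In the lines labelled WT the share was 32.1%, 47.1% and 14.1% (replicates 2, 4 and 6). Mnt took the largest share in WT replicates 6 and 2, at 61.8% and 41.0%. With the longest transcript as the length, the Mxd4 share was 51.8%, 58.2% and 56.6% in the lines labelled Rag1KO. It was then 42.9%, 58.3% and 21.3% in the lines labelled WT, and Mnt led in WT replicate 6 alone, at 51.4%.

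The ratio of summed antagonists (Mxd1, Mxi1, Mxd3, Mxd4 and Mnt) to summed MYC genes (Myc, Mycn and Mycl), per kilobase, was 1.03, 1.77 and 0.501 in the lines labelled WT. In those labelled Rag1KO it was 1.57, 1.78 and 1.73. MYC transcripts outnumbered those of the antagonists in WT replicate 6 alone, and WT replicate 4 lay within the range of the lines labelled Rag1KO. Per kilobase, the ratio of Myc to Mxd4 was 14.2 in WT replicate 6, 2.996 in WT replicate 2 and 0.945 to 1.55 in the other 4 lines. With the longest transcript as the length these values were 8.99, 1.90 and 0.599 to 0.983, so Mxd4 then exceeded Myc in those 4 lines. Mycl supplied 24.4% of the summed MYC level in Rag1KO replicate 7 and at most 5.81% in the others.

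**Figure D4:**
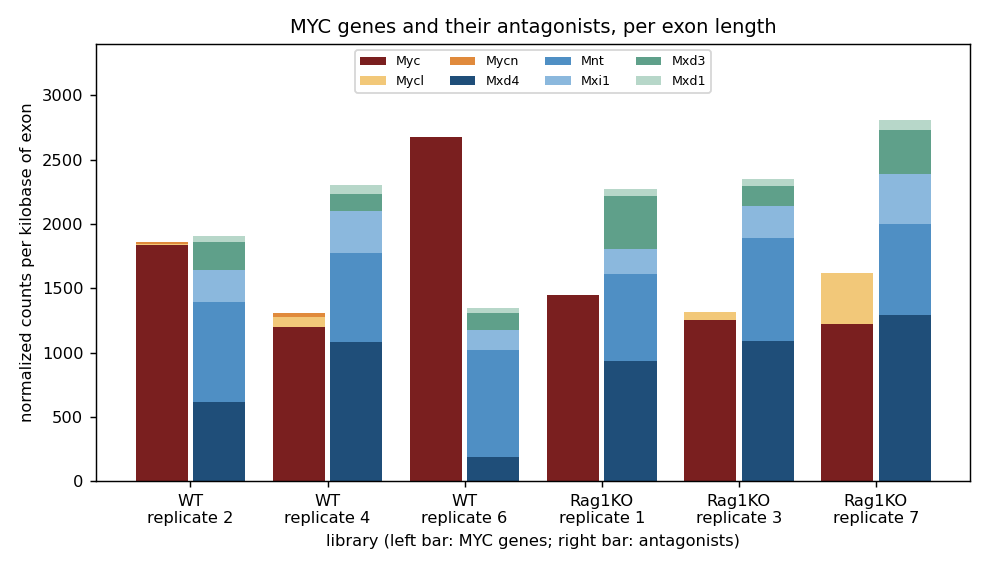
Stacked normalized counts per kilobase of merged exons in each library, with the MYC genes in the left bar and the antagonists in the right bar of each pair. The left bar is the taller one in WT replicate 6 alone, where the antagonists sum to 1344 against 1910 to 2808 in the other lines.

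The other genes of the pathway were described by lists, none of which held a gene past the threshold in either direction. Of the remaining partners, Mga, which encodes a large MAX-binding repressor, was at 3923 ± 837 normalized counts (SD, n = 3) in lines labelled WT and 3701 ± 1315 in lines labelled Rag1KO. Mlxip, which encodes MondoA, was at 3481, 3087 and 1741 normalized counts in the lines labelled WT and at 2766 to 3357 in the lines labelled Rag1KO. Mlxipl, which encodes ChREBP, had at most 4.63 normalized counts in any line and was not tested. The log2 fold changes were 0.13 for Mga and −0.24 for Mlxip, and without WT replicate 6 they were 0.12 and 0.06, a change of sign for Mlxip. The 2 glucose-responsive targets of MLX dimers varied more. Txnip, an inhibitor of glucose uptake, was at 8398, 22860 and 1974 normalized counts in the lines labelled WT and at 10925, 16851 and 10431 in those labelled Rag1KO. Arrdc4, its relative, was at 650, 1752 and 52.8 normalized counts in the lines labelled WT and at 597 to 1237 in the lines labelled Rag1KO. Mlxip, Txnip and Arrdc4 were all lowest in WT replicate 6, the line with the most Mlx. The median log2 fold change of Txnip and Arrdc4 was −0.99 with all libraries and 0.20 without WT replicate 6.

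MYC-activated genes, such as nucleolar and translation genes, mostly had higher means in the lines labelled WT. The sign was positive for 37 of the 40 listed, all tested, and their median log2 fold change was 0.45, where all tested genes had a median of 0.00. Without WT replicate 6 the list had 34 positive genes and a median of 0.29. Groups did not overlap for 8 of the 40, beside 12.1% of all tested genes. Gnl3, which encodes nucleostemin, was at 5671, 4039 and 6063 normalized counts in the lines labelled WT and at 3427, 3172 and 2831 in those labelled Rag1KO, with an adjusted p of 0.850 by limma. C1qbp, a mitochondrial matrix protein gene, was at 6725 ± 2108 normalized counts (SD, n = 3) against 3968 ± 206, and Xpot, a tRNA exporter gene, at 16985 ± 3029 against 11400.0 ± 1505. The list was chosen with earlier results of these data known, so the direction of the list is not independent evidence.

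By library the mean log2(value + 1) of the MYC-activated genes was 13.02, 12.64 and 13.18 in the lines labelled WT and 12.79, 12.37 and 12.56 in those labelled Rag1KO. The 3 lines with the most Myc, namely WT replicates 6 and 2 and Rag1KO replicate 1, were in the same order the 3 lines with the highest list mean. At the low end the order was reversed. Myc was at 3402, 3322 and 3263 normalized counts in Rag1KO replicates 3 and 7 and WT replicate 4. The list means of these lines, in the same order, rose from 12.37 to 12.56 and 12.64. Of the 33 listed genes with a promoter window, 11 held CACGTG, or 33.3%. Those 11, among them Xpot, Wdr43 and Eif4a1, had a median log2 fold change of 0.34, and the 22 without the motif had 0.45. Over all tested genes with a window the medians were 0.04 with the motif and −0.03 without it. Genes of the list with and without the E-box letters thus lay on the same side.

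MYC-repressed genes were more uneven. The 12 tested split into 4 with a positive and 8 with a negative difference (median log2 fold change −0.42). Of the 12, 7 were lowest in WT replicate 6, among them the mesenchymal marker Pdgfrb, as were 30.5% of all tested genes. Without that library 9 of the 12 were positive and the median was 0.26. Gadd45a, a stress-induced growth arrest gene, was at 2036, 4175 and 4335 normalized counts in the lines labelled WT and at 775, 1606 and 699 in those labelled Rag1KO. Its groups did not overlap, which made it the 1 such gene of the 12 (8.33%), beside 12.1% of all tested genes. The log2 fold change of Gadd45a was 1.80 with an SE of 0.45 (limma, adjusted p = 0.850). The related Gadd45b and Gadd45g pointed the other way, at −1.80 and −1.25, and without WT replicate 6 they were at −0.01 and −0.75.

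Genes that act on or with the MYC and MXD proteins went both ways in each list, with list medians near 0. The 14 coactivators had 7 positive and 7 negative log2 fold changes with a median of 0.06. Without WT replicate 6, 11 of them were positive and 3 negative, with a median of 0.08. The largest difference of the 3 genes with the lowest p was that of Ruvbl2, an ATPase of chromatin complexes, at 0.52 (0.14 without WT replicate 6). The 11 SIN3, NCOR and MIZ1 genes, 6 positive and 5 negative, had a median of 0.01. Among them the corepressor gene Ncor1 was at 12260, 13730 and 15081 normalized counts in the lines labelled WT and at 9189, 11365 and 10769 in those labelled Rag1KO, without overlap (log2 fold change 0.39, SE 0.17, adjusted p = 0.850 by limma). The 13 genes of MYC protein turnover, 4 positive and 9 negative, had a median of −0.06. Pim2, a kinase linked to MYC stability, was at 219, 191 and 184 normalized counts in the lines labelled WT. In those labelled Rag1KO it was at 412, 298 and 305, again without overlap (log2 fold change −0.76, SE 0.30, adjusted p = 0.850 by limma). Ncor1 and Pim2 were each the 1 gene of their list without overlap (9.09% and 7.69%), beside 12.1% of all tested genes. Ppp2r5a, a phosphatase subunit that acts in MYC degradation, was at 4076 ± 1209 normalized counts (SD, n = 3) against 2722 ± 202 (log2 fold change 0.54, or 0.36 without WT replicate 6). The 18 proliferation genes, 7 positive and 11 negative, had a median of −0.02. Without WT replicate 6, 2 of them were positive and 16 negative, with a median of −0.23. The shift was not particular to that library. Omitting Rag1KO replicate 1, WT replicate 4 or Rag1KO replicate 7 turned the median to 0.26, 0.16 or 0.12. Omitting Rag1KO replicate 3 lowered it to −0.46, and omitting WT replicate 2 to −0.06. Among the proliferation genes Ccnb2, a mitotic cyclin gene, was at 1757 ± 413 normalized counts against 2408 ± 115.

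**Figure D5:**
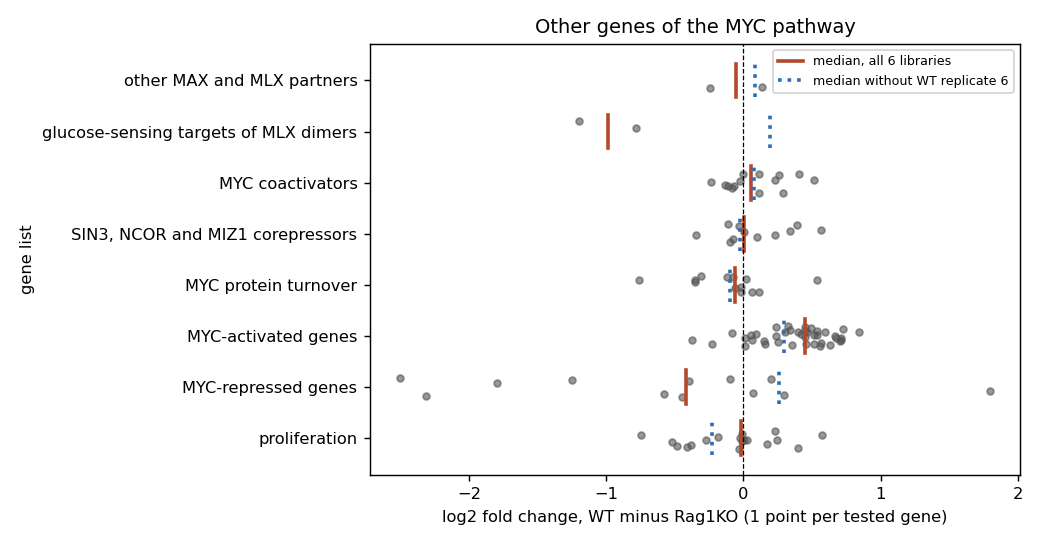
Log2 fold change (WT minus Rag1KO) of each tested gene in the 8 pathway lists, 1 point per gene, with the median of each list for all 6 libraries (solid red) and without WT replicate 6 (dotted blue). The MYC-activated genes centre on 0.45, and the median moves from −0.42 to 0.26 for the MYC-repressed genes and from −0.99 to 0.20 for the MLX targets without that library.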

How the data were processed

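RNA of 6 mouse tumour-derived lines (3 labelled WT, 3 labelled Rag1KO) had been made into libraries with Illumina's TruSeq Stranded kit, per the labels' protocols. The tools STAR 2.7.9a, Trim Galore 0.6.6, DESeq2 and FastQC and the build mm10 appear, with no roles, per the submitters' processing notes, and the read counter and annotation are not given in the sources used here. The deposited signal values are whole reads divided by 1 size factor per library: 100% of values were whole within 0.01 reads after multiplication. Gene IDs were matched to GENCODE M21 (55141 of 55401; 54349 in the same version, Myc in another), which gave coordinates and exon lengths.

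Genes passing edgeR's filterByExpr (16137) were fitted with limma 3.58.1 on log2(value + 1) with a mean-variance trend, as a two-sided test of WT minus Rag1KO, adjusted by Benjamini and Hochberg's method over all tested genes, a threshold of 0.05 and 95% intervals. The fold changes are on that scale and understate those of low genes. Alternatives on the recovered reads were edgeR 4.0.16 (TMM, RLE), DESeq2 1.42.0 and limma-voom. Others changed the scaling, filter or pseudocount (0.1), or left out each library. Fits were tested on data simulated with a smaller spread than that of these lines, so that check does not show how they perform here. R 4.3.3 and Python 3.11.15 were used.

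The members and gene lists were chosen with earlier results of these data known. Named were all members, up to 3 genes of lowest p per other list, and the 3 genes most like Myc and the widest-ranging member (predicted models left out). Pvt1 and overlapping genes were named too. Marker genes, Mfsd2a, Wdr43, Eif4a1, Xist, Eif2s3y and Rag1 were named after their values were seen.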

Additional observations from a re-analysis of the deposited data

How the results depend on the processing

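No paired analysis was made because the labels name no pairs of lines. The number of members past the threshold was 0 under all 15 alternatives. The number of genes past it was 1 by limma, 65 by DESeq2, 0 by edgeR with TMM or RLE scaling and 0 by limma-voom, and leaving out 1 library gave 0 to 5, with 5 without WT replicate 6. The unadjusted counts at 0.05 were 754 genes (limma), 717 (edgeR) and 1055 (DESeq2), out of 16137. All 9 tested members except Mxi1 kept the sign of their log2 fold change under the 15 alternatives. Mxi1 went from −0.21 to 0.081 without WT replicate 6 and to 0.067 without Rag1KO replicate 7, its leave-one-out values spanned −0.46 to 0.081, and the cause was not tested. The widest ranges were those of Mycl (−5.15 to −0.76), Mxd4 (−1.69 to −0.43) and Max (0.13 to 0.86), and that of Myc was 0.19 to 0.77. With the longest transcript as the length, the mean ratio of antagonists to MYC genes was 1.33 rather than 1.10 in lines labelled WT and 2.15 rather than 1.70 in lines labelled Rag1KO. With 3 lines a group the median SE of a tested gene was 0.40 on the log2 scale, so differences of the size seen for most members could not be resolved.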
